A study of Mus musculus with 20 samples.

Results

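The AP-1 genes encode the Fos proteins (Fos, Fosb, Fosl1 and Fosl2) and the Jun proteins (Jun, Junb and Jund). They were taken as a family by name, though with earlier results of these data known. All 7 were among the 18193 genes measured, and 11 of the 34945 probe sets with a single gene symbol belonged to them. A probe set is a group of short probes that reads 1 transcript region. The RNA came from progenitor cell lines of the mouse brain and was hybridised to 20 single-colour Affymetrix arrays, 5 in each of 4 groups. These were embryonic progenitors used as controls, embryonic progenitors that had been transduced (labelled a genetic modification), control postnatal progenitors and transformed postnatal progenitors. The labels name neither the introduced sequence nor the transforming agent, and give no strain or age in days. They give each array its own numbered cell line name, but do not say whether the arrays of a group came from separate cultures. The p-values therefore reflect how far arrays of a group differ, a spread that may be no more than technical. The number of arrays limits the precision. In bulk RNA, fewer cells of a type and less RNA per cell cannot be told apart.

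AP-1 is a transcription factor made of a Fos and a Jun protein, or of a pair of Jun proteins, held together by a leucine zipper. Fos proteins cannot bind DNA as pairs of their own kind, so the Jun partner present shapes what a Fos protein can do. Fos, Fosb, Jun and Junb are classical immediate early genes, switched on within minutes by growth factors through MAP kinases and switched off again soon after, while Fosl1 and Fosl2 accumulate later and depend on sustained ERK signalling. In neural cells and gliomas the family is known for coupling growth factor and injury signals to proliferation, motility and reactive states.

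The promoters are shown because the members fell into different patterns across the groups, and these are the letters next to their start sites. RefSeq windows of assembly GRCm38.p6, from 250 bases before to 50 bases after a gene's start, were found for 6 of the 7 genes, all but Fosl1. The genes lie on chromosome 12 (Fos, 85473890 to 85477274), chromosome 7 (Fosb, 19302696 to 19310118), chromosome 19 (Fosl1, 5447698 to 5455938), chromosome 5 (Fosl2, 32136472 to 32157840), chromosome 4 (Jun, 95049036 to 95052222) and chromosome 8 (Junb, 84976909 to 84978748, and Jund, 70697739 to 70700616). Capitals mark matches of TGACG, the core of a cyclic AMP response element, of TGACATCA, the AP-1-like element known from the Jun promoter, and of TATAAA, the TATA box. Each stretch is printed 5′ to 3′ on the gene's strand.
Fos, chr12:85473755-85473889, plus strand, bases -135 to -1: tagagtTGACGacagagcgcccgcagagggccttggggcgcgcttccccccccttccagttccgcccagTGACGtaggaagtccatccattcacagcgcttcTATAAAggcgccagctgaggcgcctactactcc
Fosb, chr7:19310089-19310118, minus strand, bases -73 to -44: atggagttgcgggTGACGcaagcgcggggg
Jun, chr4:95052223-95052357, minus strand, bases -135 to -1: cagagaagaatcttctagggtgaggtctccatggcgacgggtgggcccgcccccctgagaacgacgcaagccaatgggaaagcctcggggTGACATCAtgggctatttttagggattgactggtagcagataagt
Junb, chr8:84978749-84978883, minus strand, bases -135 to -1: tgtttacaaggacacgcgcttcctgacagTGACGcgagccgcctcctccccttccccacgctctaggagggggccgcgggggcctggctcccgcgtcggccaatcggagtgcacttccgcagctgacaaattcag
The Fosb stretch lies inside the annotated gene span, at its 5′ end, because the window belongs to a start site further in.

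On either strand, TGACG was found in the windows of Fos (at -129 to -125 and -66 to -62), Fosb (-60 to -56) and Junb (-106 to -102). That is 3 of 6 members, beside 20.8% of all 32851 windows. TGACATCA was found in Jun alone among the 6 (-45 to -38), beside 3.62% of all windows. TATAAA was found in Fos (-33 to -28) and in Junb (1 to 6, after the start), beside 13.6% of all windows. The full cyclic AMP response element TGACGTCA, which would overlap TGACG, was in none of the 6 windows (1.79% of all), the consensus AP-1 site TGACTCA in none (5.2%) and the CArG box in none (1.63%). The windows of Fosl2 and Jund held none of these letters. Letters further than 250 bases before a start were not searched, so absence from a window is not absence from a promoter. Such matches describe letters only and say nothing of whether a factor was bound.

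Signals are linear intensities as deposited, and a background level was set on each array from bacterial control probe sets (107 to 221). All 5 progenitor markers (Olig2, Sox2, Nes, Vim and Fabp7) were above background on every array. Arrays 4 and 5 of postnatal control stood apart from the other 3 for proliferation genes, and the signal of Mki67, a marker of cycling cells, ranged there from 4351 to 37266. It ranged from 32101 to 37623 in embryonic control, from 27555 to 34283 in embryonic transduced and from 3848 to 5403 in postnatal transformed. Results of the AP-1 genes and the gene lists on postnatal control were therefore also computed without these arrays, but those of the markers below were not. The log2 ratio of 3′ to 5′ probe sets of Gapdh, a sign of RNA integrity, lay between -0.43 and -0.32 in embryonic control and -0.35 and -0.26 in embryonic transduced. It lay between -0.51 and -0.41 in postnatal control and -0.59 and -0.48 in postnatal transformed. The same ratio of Actb separated the embryonic groups, at 0.30 to 0.35 in the controls and 0.39 to 0.45 in the transduced cells, and was 0.20 to 0.29 and 0.23 to 0.32 in the postnatal groups. The 6 markers of microglia and blood, cells in which AP-1 genes are also active, summed to signals of 1145 to 1556 in embryonic control and 1878 to 3057 in embryonic transduced. Their sums were 1024 to 1380 in postnatal control and 1364 to 1666 in postnatal transformed, and 2 of the 6 were above background on no array in each group. The sums of 7 fibroblast and pericyte markers were 9436 to 21273 in the embryonic controls and 3406 to 4519 in the transduced cells, then 1225 to 2210 and 1270 to 1511 in the postnatal controls and transformed cells. The sums of 5 neuronal markers were 55325 to 59668, 21209 to 23521, 44843 to 52658 and 35905 to 37866 in the same order. Those of 3 oligodendrocyte progenitor markers were 12381 to 17539, 1413 to 2479, 65669 to 92934 and 63994 to 66060, and those of 4 astrocyte markers 1451 to 1930, 819 to 1271, 3209 to 34834 and 25733 to 28802. These sums are carried by the brightest genes. In postnatal cells the astrocyte markers Gfap, Aqp4 and Aldh1l1 fell with transformation while S100b, with a mean of 26636 afterwards, rose. The postnatal controls were uneven for these markers, with 5435 ± 9237 (mean and SD) for Gfap, 2273 ± 1831 for Aqp4, 2752 ± 1293 for Aldh1l1 and 10169 ± 10576 for S100b. Among the neuronal markers Rbfox3 and Snap25 fell there, Tubb3 rose, and Map2 made up most of the sum, with means of 45660 and 32015. Oligodendrocyte markers (3 measured) summed to at most 8478 and endothelial markers (5) to at most 1632 on any array. The part of these differences in the AP-1 results was not tested.

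Embryonic progenitors with the genetic modification had more RNA of nearly the whole family. Against embryonic control, 6 of the 7 genes rose and 0 fell, while 8.61% of all genes rose and 5.74% fell. A gene counted as changed at an adjusted p under 0.05 in limma and a change of at least 2-fold. Calls used the fitted change. Fosl1 is among the 6 on that basis, as its bound in embryonic cells was 1.83-fold. The median fitted log2 change of the 7 was 2.63, or 2.29 with genes below background in a group taken at their bound, beside 0.08 over all genes. In postnatal progenitors, of the 7 only Fosl1 and Fosl2 passed both thresholds after transformation. There 2 of 7 rose and 0 fell, beside 9.56% and 6.4% of all genes, and the median log2 change was 0.44, beside 0.00 over all genes. The members are given next by role, Fos proteins before Jun proteins.

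**Figure D1:**
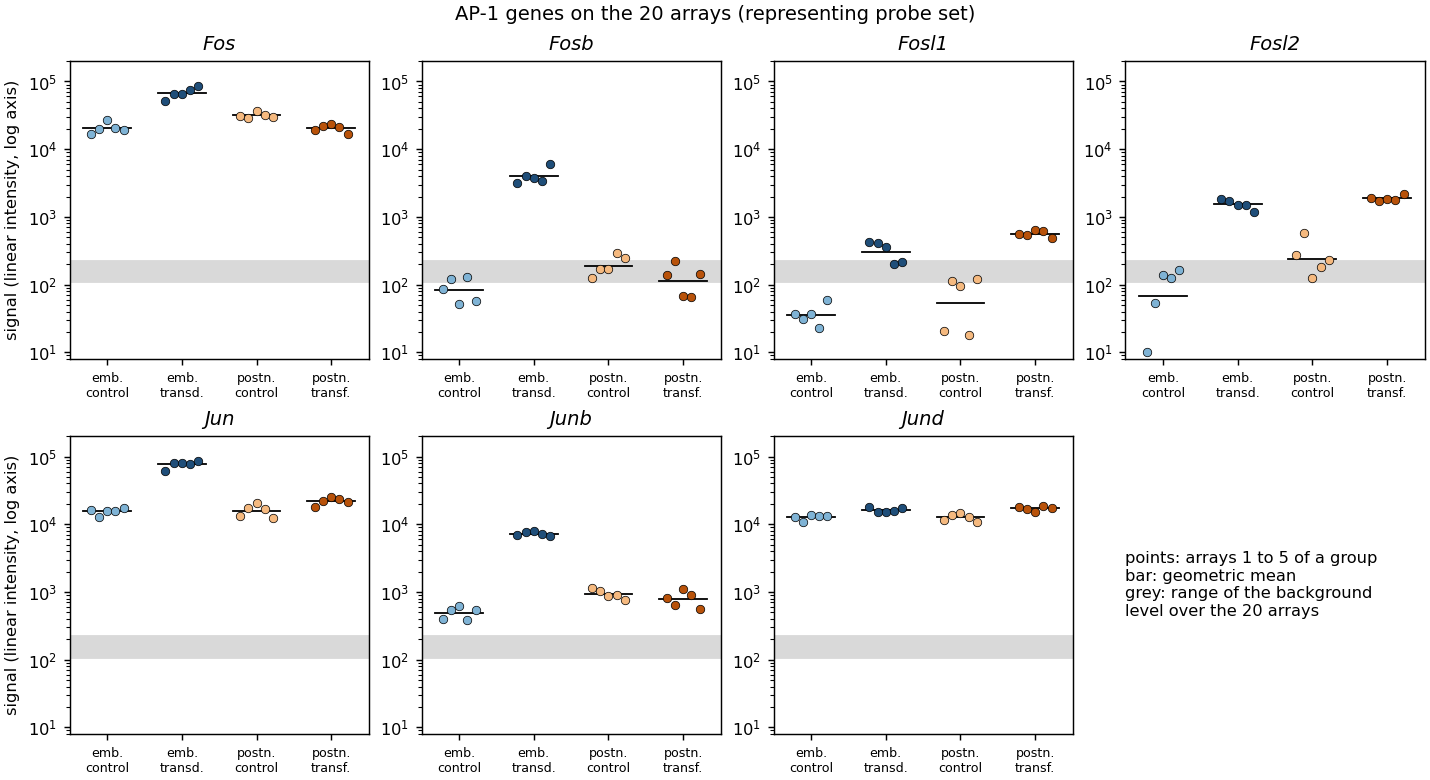
Signal of each AP-1 gene on the 20 arrays, by group, on a log axis of linear intensity. Points are single arrays, bars are geometric means and the grey band is the range of the background level. The embryonic transduced arrays are the highest for Fos, Fosb, Jun and Junb, whereas both modified groups are high for Fosl1 and Fosl2.

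Fos, the founding member and the usual marker of recent stimulation, had signals of 16611, 19817, 26549, 20340 and 19242 on embryonic control arrays 1 to 5. In embryonic transduced cells the signals were 50779, 65063, 66194, 75646 and 84330. The groups did not overlap, and Fos rose 3.33-fold (log2 change 1.73 ± 0.12, SE; adjusted p = 1.92e-10, limma). In postnatal control Fos had signals of 31214, 28983, 36190, 32255 and 29610, and in postnatal transformed 18913, 21686, 23794, 21509 and 16944. Every transformed array was thus below every control array. The log2 change was -0.63 ± 0.12 (SE), short of 2-fold (adjusted p = 0.000256). In order of level, embryonic control (20512 ± 3667, SD, n = 5) and postnatal transformed (20569 ± 2665) did not differ beyond their spread. Postnatal control stood above both without overlap (31650 ± 2848), and embryonic transduced was highest (68402 ± 12578).

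Fosb, a close relative of Fos with a stable splice form known from chronically stimulated neurons, was well above background in 1 group. Its signals were 87, 122, 52, 131 and 57 in embryonic control, below background on all 5 arrays. In embryonic transduced cells they were 3163, 4033, 3755, 3387 and 5976. This is a rise of at least 23.7-fold, measured against the background level (adjusted p = 2.14e-11). The postnatal control signals were 123, 168, 169, 290 and 248, above background on 4 arrays, and the highest readings were those of arrays 4 and 5. The postnatal transformed signals were 137, 226, 68, 66 and 143, above background on 1 array. The postnatal groups overlapped and the difference did not pass (adjusted p = 0.132). The 3 groups other than embryonic transduced overlapped in a chain, so their order is not settled.

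Fosl1 encodes Fra-1, a Fos protein without the strong activation domain of Fos that is linked to invasion and mesenchymal states in tumours. Its signals were 37, 31, 36, 23 and 60 in embryonic control and 21, 111, 95, 18 and 120 in postnatal control, below background on every array. They were 424, 407, 362, 200 and 212 in embryonic transduced and 562, 534, 630, 627 and 489 in postnatal transformed, above background on every array. Both modified groups were therefore separated from their controls. The rise was at least 1.83-fold in embryonic cells (adjusted p = 1.05e-05) and at least 3.81-fold in postnatal cells (adjusted p = 1.83e-06). The order of the controls cannot be given below background, and the transformed postnatal arrays were all brighter than the transduced embryonic ones. That last difference was 0.85 ± 0.39 on the log2 scale and did not pass (adjusted p = 0.0765), though it did after quantile normalization (1.07, adjusted p = 0.0353).

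Fosl2 encodes Fra-2, which shares with Fra-1 the lack of a strong activation domain. Its signals were 10, 54, 139, 127 and 163 in embryonic control, above background on 1 array, and 1847, 1720, 1501, 1498 and 1180 in embryonic transduced. The means were 98.4 ± 64.04 and 1549 ± 255 (SD, n = 5), without overlap (adjusted p = 5.86e-08). In postnatal control the signals were 270, 577, 124, 179 and 231, and in postnatal transformed 1877, 1714, 1860, 1780 and 2161. The postnatal groups did not overlap either, and Fosl2 rose by 2.87 ± 0.42 on the log2 scale (adjusted p = 6.11e-06). The control groups overlapped each other, as did the modified groups. In the limma fit the controls nevertheless differed, as given below (adjusted p = 0.00942), and the modified groups did not (adjusted p = 0.606).

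Jun, the main partner of Fos and the protein that JNK phosphorylates, had signals of 16440, 12922, 15572, 15807 and 17656 in embryonic control. In embryonic transduced cells they were 61438, 79456, 81120, 76455 and 86883. The groups were far apart, a 4.90-fold rise (log2 change 2.29 ± 0.13; adjusted p = 1.94e-12). Postnatal control gave 13032, 17310, 20385, 16804 and 12336, and postnatal transformed 17967, 22016, 25236, 23658 and 21521. These overlapped, and the log2 change of 0.48 ± 0.13 passed the p threshold (adjusted p = 0.00307) but not that of 2-fold. The control groups (15680 ± 1740 and 15973 ± 3310, SD, n = 5) did not differ beyond their spread.

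Junb, a Jun protein that can dampen Jun and drive differentiation, showed the steepest rise of the Jun genes. Its signals were 398, 545, 616, 386 and 550 in embryonic control and 6879, 7645, 7862, 7148 and 6694 in embryonic transduced. The rise was 14.3-fold (log2 change 3.84 ± 0.17; adjusted p = 6.62e-14), and 0.401% of all genes had a larger fitted rise. In postnatal control Junb read 1140, 1045, 876, 888 and 766, and in postnatal transformed 805, 646, 1112, 912 and 564. These overlapped, and the log2 change was -0.25, with a 95% interval from -0.60 to 0.11 (adjusted p = 0.282). By level, embryonic control was lowest and overlapped postnatal transformed, which overlapped postnatal control.

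Jund, the Jun gene that most cells keep on without stimulation, stayed within 2-fold in all 5 comparisons. Its signals ranged from 10622 to 13541 in embryonic control and from 15296 to 18218 in embryonic transduced. They ranged from 10760 to 14444 in postnatal control and from 15174 to 18471 in postnatal transformed. Modified cells were higher than their controls at both ages without overlap, yet by less than 2-fold. The log2 changes were 0.38 ± 0.09 (adjusted p = 0.00110) in embryonic and 0.44 ± 0.09 (adjusted p = 0.000193) in postnatal cells. The control groups overlapped each other, as did the modified groups.

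**Figure D2:**
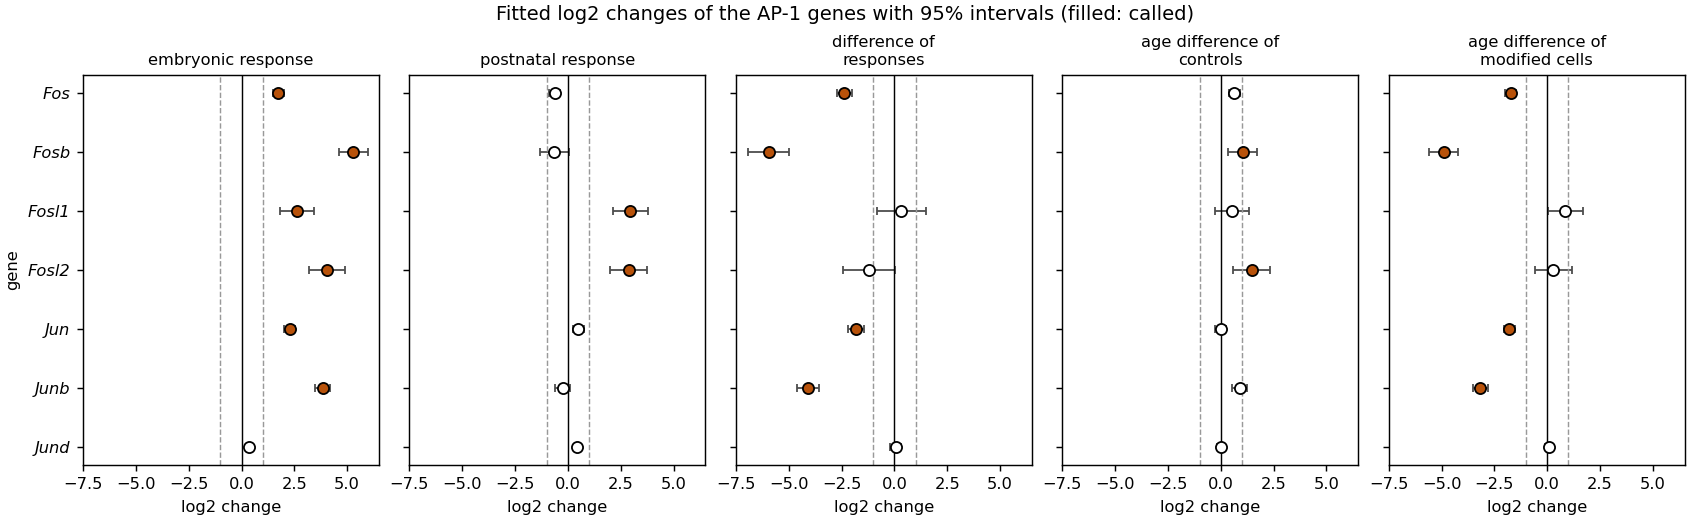
Fitted log2 change of each AP-1 gene in the 5 comparisons, with 95% intervals. Filled points passed both thresholds, the dashed lines mark 2-fold, and values of genes below background in a group depend on the offset. Fos, Fosb, Jun and Junb are filled on the negative side in the difference of responses.

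The interaction term, the postnatal response minus the embryonic one, tested whether the responses differed. Here 4 of 7 members passed, all in the negative direction, and 0 in the positive one, beside 9.75% and 9.36% of all genes. Junb differed by -4.08 ± 0.24 on the log2 scale (adjusted p = 1.48e-11). Fos differed by -2.36 ± 0.18 (adjusted p = 5.39e-10) and Jun by -1.81 ± 0.18 (adjusted p = 2.99e-08). Fosb also passed (adjusted p = 1.29e-09); its fitted difference is not a bound, since embryonic control was below background. These are the immediate early members. For Fosl2 the difference did not pass (log2 -1.18, 95% interval -2.41 to 0.05; adjusted p = 0.129). For Jund it was 0.07, with an interval from -0.19 to 0.32 (adjusted p = 0.727). For Fosl1 it was 0.33, with an interval from -0.83 to 1.49 (adjusted p = 0.703), which leaves room for more than a 2-fold difference. The median over the 7 was -1.81, beside -0.07 over all genes.

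The age comparisons use the same arrays as the responses, so their values are given side by side and not as separate evidence. Between the controls, 2 of 7 were higher in postnatal cells and 0 lower, beside 4.86% and 5.72% of all genes. The 2 were Fosl2 and Fosb, both dim, and both with overlapping groups. Fosl2 averaged 276 ± 177 in postnatal and 98.4 ± 64.04 in embryonic control (SD, n = 5; adjusted p = 0.00942). Fosb averaged 200 ± 67.6 against 90.0 ± 36.2, a difference of at least 1.14-fold (adjusted p = 0.0197). Without postnatal control arrays 4 and 5 the Fosb difference fell to 0.74 on the log2 scale and no longer passed (adjusted p = 0.185). Nor did it pass without embryonic control array 3 (0.90, adjusted p = 0.0556) or 5 (0.92, adjusted p = 0.0533), or without postnatal control array 4 (0.90, adjusted p = 0.0622) or 5 (0.95, adjusted p = 0.0516). With only the control groups fitted, Fosl2 did not pass (adjusted p = 0.0813). Fos was 0.64 ± 0.12 higher in postnatal control (adjusted p = 0.000408) and Junb 0.91 ± 0.17 higher (adjusted p = 0.000278). In both genes the control groups did not overlap, but neither difference reached 2-fold. Without those arrays the Junb difference was 1.02 and passed both thresholds (adjusted p = 0.000237). The median over the 7 was 0.64, or 0.19 at the bounds, beside -0.04 over all genes.

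Between the modified groups, 4 of 7 were lower in postnatal transformed than in embryonic transduced cells and 0 higher, beside 13.7% and 11.7% of all genes. Fosb averaged 128 ± 65.7 in postnatal transformed, above background on 1 array, and 4063 ± 1120 in embryonic transduced (adjusted p = 2.83e-11). The log2 differences were -3.18 ± 0.17 for Junb (adjusted p = 6.38e-13), -1.80 ± 0.13 for Jun (adjusted p = 4.10e-11) and -1.72 ± 0.12 for Fos (adjusted p = 8.40e-11). None of these 4 genes overlapped between the groups, which largely follows from differences of this size. The share of all genes without overlap was not computed. The median over the 7 was -1.72, beside -0.14 over all genes. The modified groups differ in age and also in the label of their modification (transduced or transformed), and these cannot be told apart here.

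Other scalings shifted some of these counts. After quantile normalization 7.33% of genes rose and 6.99% fell in the embryonic response, and the median over all genes in the comparison of the modified groups moved from -0.14 to 0.00. The 4 genes lower in transformed postnatal cells and the 6 that rose in embryonic cells passed under quantile normalization and under 75th percentile centring. Quantile normalization added Fosl1 as higher in transformed postnatal cells than in transduced embryonic ones (1.07, adjusted p = 0.0353). With centring, Fosb no longer reached 2-fold between the controls (0.99).

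**Figure D3:**
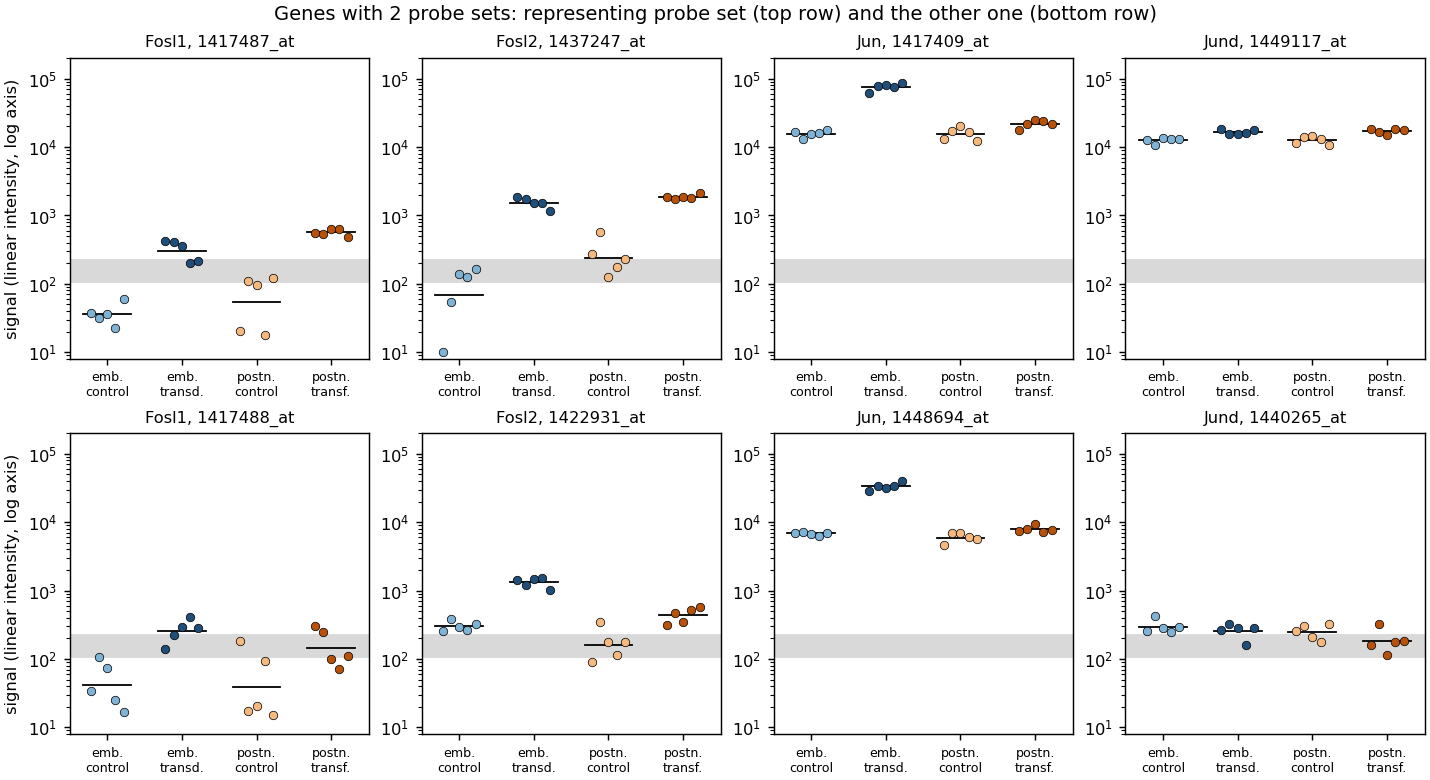
Signals of both probe sets of the 4 AP-1 genes that have 2, by group, on a log axis, with the representing set in the top row and the other in the bottom row. Both sets of Jun are highest in embryonic transduced and next highest in postnatal transformed, but they differ in the order of the controls. The second set of Jund is near the grey background band and shows no step.

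Jun, Fosl1, Fosl2 and Jund each had a second probe set, and these did not always tell the same story. The second set of Jun gave log2 changes of 2.28 ± 0.10 in embryonic and 0.39 ± 0.10 in postnatal cells, and a difference of responses of -1.89 ± 0.14. These are close to those of the first set. The second set of Fosl2 rose by 2.09 ± 0.27 in embryonic cells (adjusted p = 2.04e-06). It read 90 to 341 in postnatal control, above background on 3 arrays, and 315 to 567 in postnatal transformed, so these groups touched. The means were 180 ± 97.7 and 445 ± 112 (SD, n = 5), and this rise passed both thresholds (adjusted p = 0.000402). Between the ages the second set of Fosl2 departed from the first. It was lower in postnatal than in embryonic control by 0.82 ± 0.27 (adjusted p = 0.0295), though short of 2-fold, and it fell by 1.57 ± 0.27 between the modified groups (adjusted p = 4.16e-05). The age differences of Fosl2 therefore hang on the probe set, while its rises with modification were seen in both. The second set of Fosl1 was above background on 0 of 5 embryonic control arrays and 4 transduced ones, and on 1 postnatal control array and 2 transformed ones. It rose at least 1.53-fold in embryonic cells (adjusted p = 0.00221). Its postnatal groups overlapped, with means of 66.4 ± 74.2 in control and 166 ± 100.9 in transformed cells (SD, n = 5). That fitted rise passed both thresholds (adjusted p = 0.0411), though on mostly dim readings. Between the modified groups it ran opposite to the first set, with means of 271 ± 99.3 in transduced and 166 ± 100.9 in transformed cells (SD, n = 5), and did not pass (adjusted p = 0.258). The second set of Jund was dim, between 113 and 422 on all arrays, and passed in no comparison, so the small step of Jund rests on the brighter set.

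Around the family, 5 lists of genes were examined by role, and the genes named from them are the 4 with the smallest p in either response unless said otherwise. The first list held 18 dimer partners and small bZIP factors, proteins that pair with Fos or Jun or compete for the same DNA, of which 17 were measured. In embryonic cells 3 rose and 0 fell, with a median log2 change of 0.26, while 8.61% of all genes rose and 5.74% fell, with a median of 0.08. In postnatal cells 8 rose and 0 fell, with a median of 1.15, while 9.56% of all genes rose and 6.4% fell, with a median of 0.00. Maff, a small Maf protein without an activation domain, rose in both (2.09 ± 0.16 and 2.49 ± 0.16, log2; adjusted p = 5.32e-10 and 3.05e-11). Atf4, the main factor of the integrated stress response, rose by 1.79 ± 0.10 in postnatal cells (adjusted p = 4.41e-12) and changed by 0.16 ± 0.10 in embryonic ones (adjusted p = 0.233). Jdp2, a repressor that pairs with Jun, rose by 1.71 ± 0.09 in postnatal cells (adjusted p = 1.36e-12), beside -0.20 ± 0.09 in embryonic ones (adjusted p = 0.0825). Nfe2l1, a bZIP factor of proteasome genes, rose by 1.76 ± 0.10 in postnatal cells (adjusted p = 2.09e-12) and changed by 0.46 ± 0.10, short of 2-fold, in embryonic ones. The responses of Atf4, Jdp2 and Nfe2l1 differed in the interaction term by 1.63 ± 0.14, 1.91 ± 0.13 and 1.30 ± 0.14. The other genes that rose in embryonic cells, Atf3 and Nfe2l2, were looked up after their values were seen.

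The second list held 24 kinases and nuclear factors that regulate AP-1 genes, of which 18 were measured. In embryonic cells 0 rose and 1 fell, beside 8.61% and 5.74% of all genes, and in postnatal cells 3 rose and 0 fell, beside 9.56% and 6.4%. The medians were 0.05 in both, beside 0.08 and 0.00 over all genes. Elk3, an ETS factor that acts with SRF on the Fos promoter, rose by 2.56 ± 0.19 in postnatal cells (adjusted p = 2.78e-10), beside 0.49 ± 0.19 in embryonic ones. Map2k1, the kinase MEK1 that activates ERK, rose by 1.63 ± 0.07 in postnatal cells (adjusted p = 2.86e-14), beside 0.78 ± 0.07, short of 2-fold, in embryonic ones. Mapk8, the kinase JNK1, and Mef2a, a factor of the Jun promoter, changed by less than 2-fold in both (-0.72 ± 0.07 and 0.88 ± 0.07 in postnatal cells). Mapk10, which fell in embryonic and rose in postnatal cells, was looked up after its values were seen.

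The third list held 18 genes that restrain MAP kinases or remove AP-1 products, of which 17 were measured. In embryonic cells 4 rose and 1 fell (median 0.20), beside 8.61% and 5.74% of all genes (median 0.08). In postnatal cells 3 rose and 3 fell (median 0.05), beside 9.56% and 6.4% (median 0.00). Dusp4 and Dusp6, phosphatases that ERK itself induces and that inactivate it, rose at both ages. Dusp4 rose by 2.93 ± 0.13 in embryonic cells (adjusted p = 5.05e-14) and by 4.47 ± 0.13 in postnatal ones (adjusted p = 6.24e-17). Dusp6 rose by 1.04 ± 0.16 (adjusted p = 1.73e-05) and by 2.31 ± 0.16 (adjusted p = 1.20e-10). Dusp1, an immediate early phosphatase of p38 and JNK, rose by 1.60 ± 0.10 and 1.13 ± 0.10 (adjusted p = 3.11e-11 and 6.88e-09). Zfp36l1, which marks AU-rich messages for decay, fell by 1.37 ± 0.10 in postnatal cells (adjusted p = 1.83e-10) and changed by -0.73 ± 0.10, short of 2-fold, in embryonic ones. The other genes of these counts, looked up after their values were seen, were Dusp5 (which rose in embryonic cells and fell in postnatal ones), Dusp8 (lower in embryonic cells) and Dusp2 (lower in postnatal cells).

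The fourth list held 24 genes known as AP-1 targets in other cells, of which 22 were measured. In embryonic cells 8 rose and 1 fell, with a median of 0.86, or 0.37 at the bounds (all genes 8.61%, 5.74% and 0.08). In postnatal cells 11 rose and 0 fell, with a median of 1.08, or 0.77 at the bounds (all genes 9.56%, 6.4% and 0.00). One of these 11, Il6, was below background on every array of both groups, so no change of its level was measured. It was looked up after its values were seen, as was Ccnd1, which fell in embryonic cells. Cd44, the hyaluronan receptor of motile glioma cells, rose by 2.07 ± 0.27 in embryonic cells (adjusted p = 1.63e-06) and by 4.60 ± 0.27 in postnatal ones (adjusted p = 6.88e-12). Tnfrsf12a, the TWEAK receptor, rose by 2.12 ± 0.22 and 2.41 ± 0.22 (adjusted p = 7.49e-08 and 8.70e-09). Vegfa, the angiogenic factor, rose more in embryonic cells (3.07 ± 0.18, adjusted p = 6.84e-12) than in postnatal ones (1.91 ± 0.18, adjusted p = 1.23e-08), with an interaction of -1.16 ± 0.26 (adjusted p = 0.000788). Hmox1, haem oxygenase, rose in postnatal cells (2.64 ± 0.25, adjusted p = 1.33e-08), beside 0.37 ± 0.25 in embryonic ones (adjusted p = 0.281).

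The fifth list held 20 immediate early genes other than Fos and Jun, all measured. In embryonic cells 9 rose and 0 fell (median 0.94), beside 8.61% and 5.74% of all genes (median 0.08). In postnatal cells 5 rose and 6 fell (median 0.21), beside 9.56% and 6.4% (median 0.00). In the interaction term 10 of the 20 were negative and 3 positive (median -0.99), beside 9.75% and 9.36% (median -0.07). Egr2, a zinc finger factor, rose by 3.30 ± 0.20 in embryonic cells (adjusted p = 9.32e-12) and fell by 2.90 ± 0.20 in postnatal ones (adjusted p = 7.10e-11). Egr1, its close relative, changed by 0.94 ± 0.12 in embryonic cells, short of 2-fold (1.02 and past it without embryonic control array 3), and fell by 2.11 ± 0.12 in postnatal ones (adjusted p = 2.36e-12). Klf4 rose at both ages, by 5.31 ± 0.25 and 3.36 ± 0.25 (adjusted p = 1.59e-13 and 2.97e-10). Arc, a synaptic immediate early gene, averaged 68.1 ± 29.4 in embryonic control, below background on all 5 arrays, and 11632 ± 1259 in embryonic transduced. That is a rise of at least 69.3-fold (adjusted p = 6.92e-12). In postnatal cells Arc averaged 412 ± 333 in control, above background on 4 arrays, and 721 ± 110 after transformation (log2 change 1.19 ± 0.42, adjusted p = 0.0266). Without postnatal control arrays 4 and 5 this change was 0.39 (adjusted p = 0.336), and it did not pass without postnatal control array 4 (0.71) or 5 (1.07) or transformed array 3 (1.13) or 4 (1.14) alone. The counts of this list without those arrays were 3 higher and 6 lower in postnatal cells. The other lists then gave 9 higher and 0 lower (partners), 4 and 0 (kinases and factors), 3 and 3 (restraint), and 9 and 1 (targets).

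**Figure D4:**
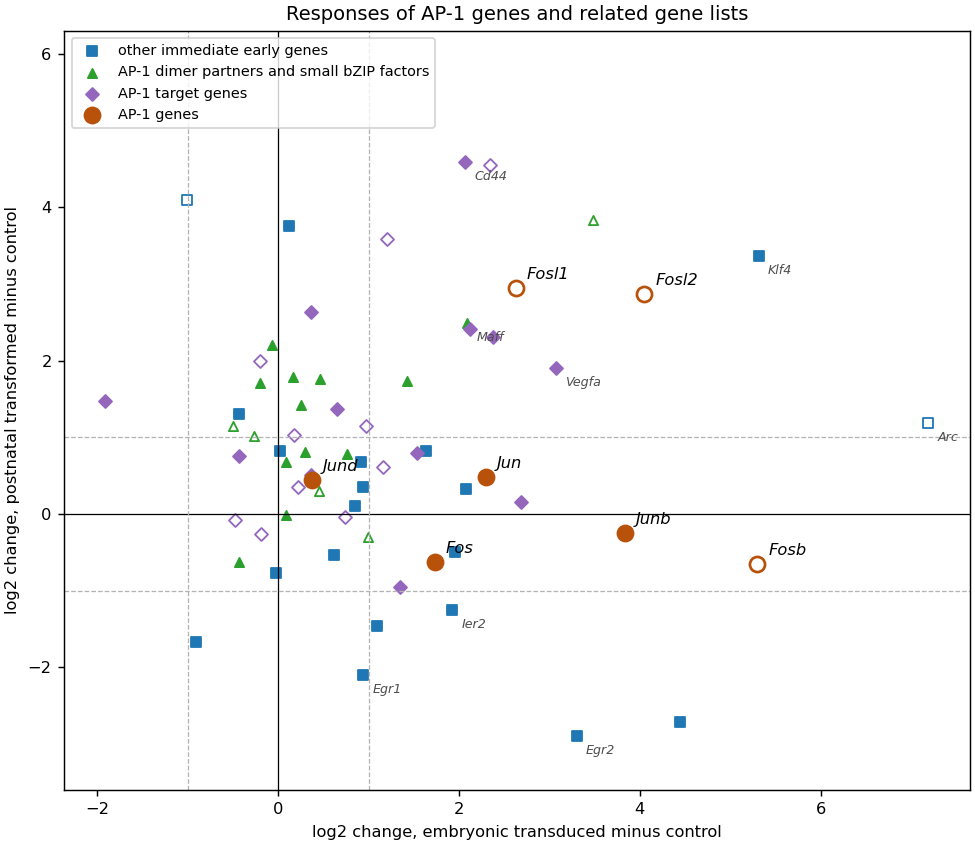
Log2 change in postnatal cells against that in embryonic cells for the 7 AP-1 genes (circles) and 3 of the gene lists. Open symbols are genes above background on 3 or fewer arrays of some group, and dashed lines mark 2-fold. Egr2 and Ier2 lie below 0 on the postnatal axis and above 1 on the embryonic one, and Fosl1, Fosl2, Klf4 and Cd44 lie above 1 on both.

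Genes whose pattern was most like that of a member were sought among 12728 genes above background on at least 10 arrays, by Pearson's r of log2 values over the 20 arrays. As the arrays form 4 groups, r is set mostly by the group means and is given as a description. The gene most like Fos was Ier2 (r = 0.961), another immediate early gene, with means of 13575, 51403, 22181 and 9233 in embryonic control, embryonic transduced, postnatal control and postnatal transformed. After removal of the group means its r with Fos was 0.801, so they also moved together between arrays of a group. Next came Firre (0.9496) and Ppox (0.944). For Jun they were Tlnrd1 (0.985), Six4 (0.972) and Bsg (0.969), and for Junb Gpc6 (0.9755), Pdk3 (0.97498) and Hook1 (0.968). Hook1 (0.978) and Pdk3 (0.969) were also among the genes most like Fosb, with Ago2 (0.970). Their r with Fosb within groups was 0.30 and -0.02, so that likeness was between group means. For Fosl2 they were Plxnd1 (0.970), Ifi27 (0.959) and Gbp2 (0.955), and for Fosl1 Nenf (0.948), Prkce (0.947) and Plxnd1 (0.946). Plxnd1, a semaphorin receptor, averaged 333, 1418, 505 and 2055 in the 4 groups, and its r with Fosl2 within groups was 0.840. Fosl2 varied most within embryonic control (log2 SD 1.16, beside 0.77 in postnatal control and less in the modified groups). It was above background there on 1 of 5 arrays, so that r may rest on dim readings. Fosb and Fosl1 were each above background on 10 of the 20 arrays, Fosl1 on no control array, so their r values also rest on dim readings. Within groups the r with Fosl1 was 0.50 for Nenf, 0.49 for Prkce and 0.43 for Plxnd1. The genes most like Jund were Tesc (0.917), Mkln1 (0.907) and Plk3 (0.897).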

How the data were processed

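Total RNA of 20 samples was measured on 1 array each. The values deposited by the authors are linear intensities of 45101 probe sets. How the authors corrected and normalized them, and with which software, is not given in the sources used here. Trimmed by 2% of values at each end, the array means lay between 2500.01 and 2500.02, so intensities were used as deposited. Scaling to a common mean hides any change in total RNA per cell. Of 190 pairs of arrays, 0 held identical values.

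The 95th percentile of 27 bacterial control probe sets was each array's background, and 61.3% to 73.2% of probe sets lay above it. The scale was log2(signal + 16), on which changes of dim genes come out too small. Each of 18193 genes was represented by the brightest, by mean log2, of its probe sets with 1 symbol in the supplied platform annotation, and 9010 genes had several. Means of the 4 groups were fitted over 20 arrays with limma 3.58.1 (lmFit, contrasts.fit, eBayes with trend) in R 4.3.3 with data.table (version 1.17.8). Tests were two-sided and p-values were adjusted by Benjamini-Hochberg over all genes. Each change has its standard error. The fit was tested on simulated data. Where all 5 arrays of a group were below background for a gene, a fold is a lower bound, taken against the higher of background and signal. Where it was above on 1 to 3, mean signals are given.

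Members, lists and rules were chosen with earlier results of these data known, so no list is independent evidence. Named were all 7 members, up to 4 genes a list with the smallest p in either response, and the 3 genes most like each member, clone names passed over. Listed genes without a single-symbol probe set were not analysed here. Alternatives were other offsets, scalings, probe set rules, filters and thresholds, the replicate number as a block, and each array left out. Leaving out postnatal control arrays 4 and 5, and all alternatives of the lists, were added after seeing the data.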

Additional observations from a re-analysis of the deposited data

Results flagged for a closer look

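In 196 groups of 5 arrays, over the 49 probe sets named, 10 had an array further from the others than Dixon's 95% critical value allows, and chance alone gives about 1 in 20. For Jund, embryonic control array 2 read 10622 (others 12694 to 13541), and on its second probe set embryonic transduced array 4 read 159 (269 to 326). Embryonic control array 3 was high for Vegfa (4455, others 3395 to 3605), Egr1 (43454, others 32150 to 35054) and Egr2 (2628, others 1400 to 1626). Embryonic control array 1 was low for Klf4 (270.5, others 331 to 348). Postnatal control array 3 was high for Ier2 (30182, others 19335 to 21217). Postnatal transformed array 1 was high for Hook1 (1696, others 1450 to 1508) and array 2 low for Plk3 (907, others 1124 to 1187). Embryonic transduced array 2 was low for Mkln1 (5821, others 6835 to 7175).

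The responses at the 2 ages differed in the interaction term, by at least 2-fold at an adjusted p under 0.05 in limma, for 17 of 27 genes tested. Over all genes 9.36% passed in the positive and 9.75% in the negative direction. The list genes among the 27 were named for a small p in either response on the same arrays. That choice favours a high count. Given as the postnatal minus the embryonic log2 change, the AP-1 members among the 17 were Fosb (-5.95), Junb (-4.08), Fos (-2.36) and Jun (-1.81). Among the other immediate early genes they were Egr2 (-6.20), Arc (-6.00), Egr1 (-3.05) and Klf4 (-1.95). The values of Fosb and Arc are fitted, since both were below background in embryonic control. The response of the target Vegfa was also smaller in postnatal cells (-1.16). It was larger in postnatal cells for the targets Cd44 (2.53) and Hmox1 (2.27), the partners Jdp2 (1.91), Atf4 (1.63) and Nfe2l1 (1.30), the factor Elk3 (2.07) and the phosphatases Dusp4 (1.54) and Dusp6 (1.27).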

How the results depend on the processing

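Of the calls and directions of the AP-1 genes over the 5 comparisons, 364 values under other settings kept their direction and side of the thresholds, 7 turned sign, 5 no longer passed and 2 newly passed. With 1 array left out, 686 kept both, 10 turned sign and 4 no longer passed. The counts of AP-1 genes called in the embryonic response, the difference of responses and the comparison of modified cells stayed within 1.5 times. In the control comparison the count of 2 became 1 with an offset of 64, with 75th percentile centring, with the mean of all probe sets and with only the groups compared, 4 with no fold threshold, and 1 to 2 with 1 array left out (1 without embryonic control array 3 or 5, or postnatal control array 4 or 5). In the postnatal response the count of 2 became 5 with no fold threshold. Centring turned the control comparison of Jun (-0.035) and the embryonic change of Mef2a (-0.042). The mean of all probe sets turned the difference of responses of Fosl1 (-0.23) and Jund (-0.081), the control comparison of Jun (-0.10), the comparison of modified cells for Fosl2 (-0.64) and Jund (-0.20), and the embryonic changes of Mapk8 (0.070), Elk3 (-0.10) and Mef2a (-0.090). Leaving out postnatal control arrays 4 and 5 turned the control comparison of Jund (0.062). With 1 array left out, the control comparison ranged from -0.085 to 0.096 for Jun and from -0.064 to 0.055 for Jund, and the embryonic change of Mapk8 from -0.063 to 0.0094. None of these turned values passed the thresholds on either side, and their cause was not tested. Jdp2 no longer passed in the postnatal response with the mean of all probe sets (0.86, adjusted p = 0.0565), nor Dusp6 in the embryonic response with centring (0.95).

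Over all genes, taking every probe set or no fold threshold raised the calls from 2611 to 5137 and 7162 (embryonic), 2904 to 5650 and 7692 (postnatal), 3475 to 7054 and 7083 (difference), 1925 to 3464 and 5830 (controls) and 4634 to 9148 and 9479 (modified cells). With no fold threshold the lists' calls in embryonic cells went from 3 to 6 (partners), 1 to 8 (kinases and factors), 5 to 10 (restraint) and 9 to 15 (immediate early), and in postnatal cells from 3 to 13 (kinases and factors) and 6 to 15 (restraint). The single embryonic call among the kinases and factors was lost with the mean of all probe sets and without embryonic control array 4 (0).

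Same-numbered arrays of control and modified cells correlated between -0.19 and 0.24 (embryonic) and -0.05 and 0.05 (postnatal) over 10242 genes. The labels do not say whether the numbers pair the samples. These correlations cannot settle it, since differences between single arrays can hide a shared origin. With a replicate block 0 of 35 AP-1 calls changed, with counts of 6, 2, 4, 2 and 4 in the order of the comparisons above. Signal near background limits Fosb, Fosl1, Fosl2 and the second set of Jund, whose folds are bounds or rest on the offset.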
